A study of Mus musculus with 6 samples.

Results

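The mouse Il10 and Il24 cytokine cluster of chromosome 1 was followed in helper T cells that lack Ikzf4. The 7 members were chosen by position and family around Il10 and Il24, which had been selected on their log2 fold change and adjusted p-value between the genotypes in these same libraries, and are completed by their family genes Il19 and Il20 and the non-cytokine neighbours Mapkapk2, Dyrk3 and Eif2d. Of the 7, 5 had a row among the 14868 genes of the deposited table. Il19 and Il20 had none, and are not analysed here. Naïve CD4+ T cells from WT or Ikzf4-/- mice, both of C57BL/6J background, were cultured in IMDM medium with serum for 3 days (72 h). Antibodies bound to the plate triggered the T cell receptor (anti-CD3 at 5 µg/mL) and gave co-stimulation (anti-CD28 at 2 µg/mL). All cultures also received 10 ng/mL IL-4, which drives T helper 2 (Th2) differentiation, and 10 µg/mL of an antibody against interferon gamma. Total RNA was sequenced from 3 samples of each genotype. Ikzf4 encodes Eos, a zinc finger transcription factor of the Ikaros family. The labels give neither the deleted part of Ikzf4 nor the cells in which it is deleted, and they do not say whether replicates came from separate mice, so p-values measure only the spread between these libraries.

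Interleukin-10 is the founding member of a cytokine family and restrains inflammatory responses. It binds a receptor of the ligand-binding chain IL-10RA and the shared chain IL-10RB, and signals through JAK1 and TYK2 to the transcription factor STAT3. The neighbouring genes Il19, Il20 and Il24 encode cytokines that act through receptors with the IL-20RB chain, mostly on epithelial cells. In mice, Th2 cells are a known source of both IL-10 and IL-24. Mapkapk2 encodes MK2, a kinase activated by p38 that controls the stability and translation of cytokine mRNAs with AU-rich elements. Dyrk3 encodes a kinase that dissolves cellular condensates, and Eif2d a factor of non-canonical translation initiation and ribosome recycling.

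On GRCm38 the 7 genes span 305.6 kb of chromosome 1, from Il24 to Eif2d. Il24 lies at 130882074 to 130887454 on the minus strand, Il20 at 130906985 to 130911451 (minus) and Il19 at 130932656 to 130940115 (minus). Il10 lies at 131019845 to 131024974 on the plus strand, its start 132.4 kb from that of Il24 and 78.0 kb from that of Mapkapk2. Mapkapk2 covers 131053700 to 131097826 (minus), Dyrk3 131127455 to 131138340 (minus) and Eif2d 131153181 to 131187658 (plus). A promoter sequence was matched for 5 of the 7 genes, Il19, Il20, Mapkapk2, Dyrk3 and Eif2d, and not for Il10 and Il24. The 250 bases before each RefSeq start (GRCm38.p6) are printed 5′ to 3′, with CpG dinucleotides in capitals. They are shown because the measured neighbours and the cytokine genes without a row differ in these dinucleotides. The measured cytokine genes Il10 and Il24 have no window and cannot be placed in this comparison. A link with having a row was not tested. The RefSeq starts do not all match the gene spans given above. The windows of Il20, Dyrk3 and Eif2d lie partly inside those spans, so part of each may be transcribed.
Il20 (chr1:130911297-130911546, minus): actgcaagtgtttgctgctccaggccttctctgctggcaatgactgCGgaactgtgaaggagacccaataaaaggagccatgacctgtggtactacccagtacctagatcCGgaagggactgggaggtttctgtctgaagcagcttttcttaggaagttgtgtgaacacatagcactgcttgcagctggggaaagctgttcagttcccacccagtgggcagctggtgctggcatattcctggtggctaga
Il19 (chr1:130940116-130940365, minus): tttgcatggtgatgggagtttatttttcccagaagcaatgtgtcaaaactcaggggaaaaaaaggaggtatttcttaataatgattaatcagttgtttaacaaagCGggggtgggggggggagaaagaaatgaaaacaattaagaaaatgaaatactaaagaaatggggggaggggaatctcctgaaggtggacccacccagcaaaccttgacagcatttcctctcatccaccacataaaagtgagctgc
Mapkapk2 (chr1:131097844-131098093, minus): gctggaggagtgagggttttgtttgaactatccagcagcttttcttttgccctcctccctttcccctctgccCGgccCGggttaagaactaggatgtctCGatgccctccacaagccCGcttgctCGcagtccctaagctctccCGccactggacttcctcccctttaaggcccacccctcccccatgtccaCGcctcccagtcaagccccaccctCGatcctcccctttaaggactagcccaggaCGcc
Dyrk3 (chr1:131138235-131138484, minus): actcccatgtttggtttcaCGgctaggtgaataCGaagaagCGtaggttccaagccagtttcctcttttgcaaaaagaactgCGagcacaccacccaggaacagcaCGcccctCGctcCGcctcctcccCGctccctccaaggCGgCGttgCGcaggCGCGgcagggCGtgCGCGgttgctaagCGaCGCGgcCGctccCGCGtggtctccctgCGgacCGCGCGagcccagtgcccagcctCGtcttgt
Eif2d (chr1:131152957-131153206, plus): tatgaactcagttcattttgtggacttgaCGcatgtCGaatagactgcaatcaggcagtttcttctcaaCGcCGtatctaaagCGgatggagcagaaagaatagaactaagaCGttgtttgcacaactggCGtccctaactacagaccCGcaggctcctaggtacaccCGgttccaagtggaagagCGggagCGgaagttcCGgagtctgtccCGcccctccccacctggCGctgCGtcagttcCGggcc

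Il20 and Il19 held 2 and 1 CpG in this window, below the median of 6 over 32851 RefSeq promoters. Mapkapk2 held 9, Eif2d 16 and Dyrk3 27. The core TTCCCA, which Ikaros-family proteins can bind, was searched on both strands and occurred in 21.6% of all promoters of this length. It was present 1 time in Il20, with its first base at -47 from the start, and 1 time in Il19, at -225. In Il19 that match overlaps one to TTCNNNGAA, a STAT motif found in 7.0% of promoters. Il20 held 1 match to the STAT6-type site with a spacer of 4 bases (5.9% of promoters), at -104. The Il20 matches at -47 and -104 fall inside the gene span given above. The AP-1 motif TGANTCA (6.7%), the GATA motif GATAAG (6.5%) and the MAF motif TGCTGA (16.1%) had no match in these 5 windows, and Mapkapk2, Dyrk3 and Eif2d matched none of the 6 motifs.

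Before the members, the libraries were checked. Values per library are listed in the order of replicates 1, 2 and 3. If the smallest step between the values of a library is taken as 1 read, depth came to 34701390 to 40604346 reads. For 2 Ikzf4-/- libraries the step lay too near 1 to settle this. Ikzf4 itself stood at 756, 499.6 and 483 normalized reads (WT) and at 25.2, 10.5 and 38.2 (Ikzf4-/-), so that each library matched its label. WT replicate 1 stood apart: its median absolute log2 difference from the other WT libraries was 0.134 and 0.152, against 0.111 between those and 0.114 to 0.130 among the Ikzf4-/- libraries. It held the highest value of the 6 libraries for 25.6% of the 14864 genes tested. T cell identity genes were abundant, with all 8 of the list measured and a summed level of 113522 to 114950 in WT and 111300 to 113770 in Ikzf4-/- libraries, Cd4 among them. Of the 8, Cd5 rose (log2 fold change 0.33, limma adjusted p = 0.0306) and 7 were not called. Of other cells that can make IL-10 or its relatives, 0 of 7 macrophage markers had a row. Of the B cell markers 2 of 6 had one, with sums of 51.1 to 83.6 in WT and 58.6 to 90.4 in Ikzf4-/- libraries. Of the CD8 T and NK cell markers 4 of 6 had one, with sums of 406 to 730 and 450.2 to 708. Of the dendritic cell markers 2 of 5 (79.8 to 104 and 103 to 131), of the mast cell and basophil markers 1 of 5 (2.91 to 33.001 and 0 to 28.1) and of the keratinocyte and epithelial markers 2 of 5 (247 to 357 and 232 to 327) had a row. The ranges of these sums overlapped between genotypes for each of the 5 lists with a row.

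Il10 transcripts stood at 743, 465 and 360.1 normalized reads (WT) and at 179.6, 192 and 166 (Ikzf4-/-). Each Ikzf4-/- library lay below each WT library, and WT replicate 1 was the highest of all. The mean was 523 ± 198 (SD, n = 3) in WT and 179 ± 12.9 (SD, n = 3) in Ikzf4-/- cells, a log2 fold change of -1.48 with a standard error (SE) of 0.21. In bulk RNA, fewer cells making the transcript and less transcript per cell cannot be told apart. Without WT replicate 1 the WT mean was 412, still 2.30 times the Ikzf4-/- mean, against 2.92 times with it. The fit across all genes then gave -1.19.

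Il24 stood at 543, 481 and 606 (WT) and at 184, 119 and 256 (Ikzf4-/-). Again no Ikzf4-/- library reached the lowest WT library. The mean was 543 ± 62.4 (SD, n = 3) in WT and 186 ± 68.5 (SD, n = 3) in Ikzf4-/- cells, a log2 fold change of -1.60 (SE 0.22). The WT mean was 2.92 times the Ikzf4-/- mean for Il10 and 2.91 times for Il24. Without WT replicate 1 these factors were 2.30 and 2.91. These differences are part of what led to the choice of the genes, and are given as a description with no test.

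The 2 cytokine genes varied most in different genotypes. The coefficient of variation of Il10 was 37.9% in WT and 7.22% in Ikzf4-/- libraries, and that of Il24 was 11.5% in WT and 36.7% in Ikzf4-/- libraries. On the log2 scale the distance of WT replicate 1 from the WT mean was 0.57 for Il10 and 0.01 for Il24, and that of WT replicate 3 was -0.47 for Il10 and 0.16 for Il24. In the Ikzf4-/- libraries Il24 ranged from -0.57 to 0.52 around its mean, and Il10 from -0.11 to 0.10. The ratio of Il10 to Il24 reads was 1.37, 0.966 and 0.595 (WT) and 0.978, 1.61 and 0.647 (Ikzf4-/-). These ratios overlapped between genotypes.

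**Figure D1:**
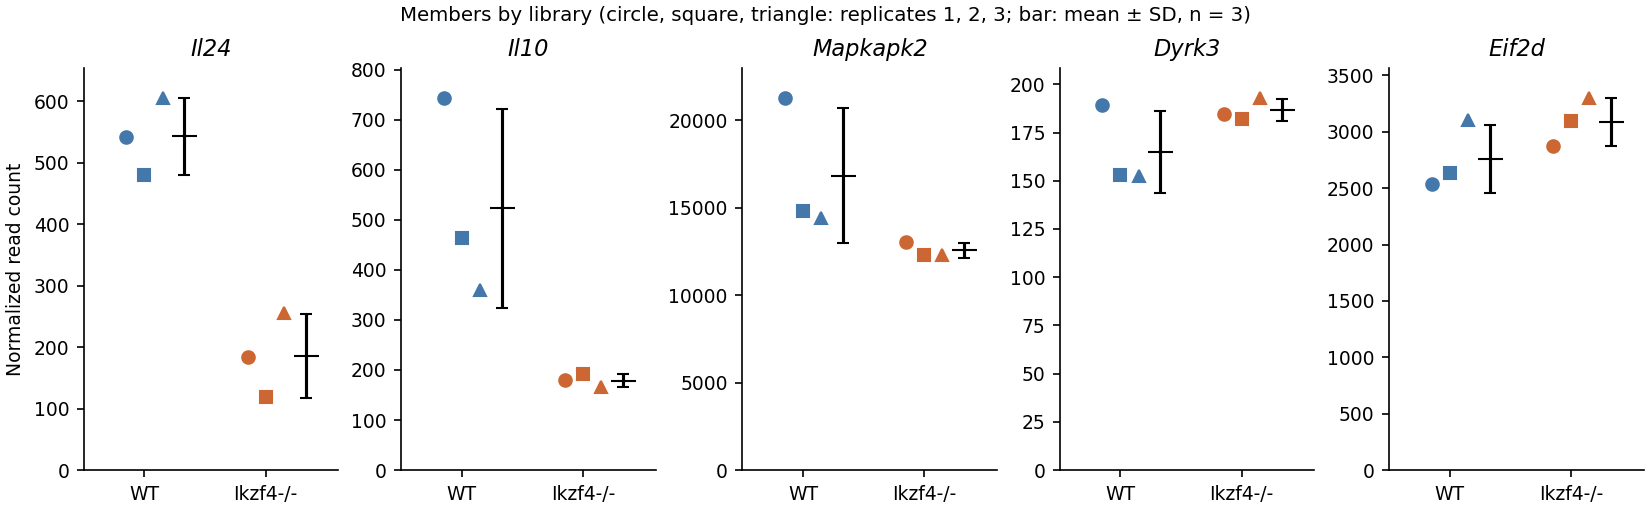
Normalized read counts (y axis, from 0) of the 5 measured members in the 3 WT (blue) and 3 Ikzf4-/- (orange) libraries, with mean ± SD. Il10 and Il24 lay lower in each Ikzf4-/- library, with WT replicate 1 (circle) at 743 for Il10 and 21265 for Mapkapk2, while Dyrk3 and Eif2d overlapped between genotypes.

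Mapkapk2, the nearest measured neighbour of Il10, was the most abundant member. It stood at 21265, 14815 and 14399 normalized reads (WT) and at 13060, 12323 and 12313 (Ikzf4-/-). The Ikzf4-/- libraries lay below the WT libraries without overlap, but the 2 lower WT libraries lay much nearer to them than WT replicate 1 did. The log2 fold change was -0.40 (SE 0.12) with all libraries and -0.22 without WT replicate 1. The WT mean was 1.34 times the Ikzf4-/- mean, or 1.16 times without that library.

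Dyrk3 stood at 189, 153 and 152 (WT) and at 185, 182 and 193 (Ikzf4-/-), and the genotypes overlapped. Its log2 fold change was 0.18, with a 95% confidence interval from -0.13 to 0.50. Eif2d stood at 2535, 2634 and 3101 (WT) and at 2872, 3097 and 3299 (Ikzf4-/-), also with overlap. Its log2 fold change was 0.17, with an interval from -0.01 to 0.34. The 3′ part of Eif2d overlaps Rassf5 on the other strand, and whether counting used strand is not given in the sources used here, so reads of the overlap cannot be assigned with certainty.

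Of the 5 measured members, 2 (Il10 and Il24) were called in the limma fit at an adjusted p-value under 0.05, both lower. Across the 14864 genes tested 1.77% were called, and 1.2% were called lower. In the authors' deposited table the same 2 members had an adjusted p under 0.05, as did 6.34% of 12849 genes. Libraries of the genotypes did not overlap for 3 of the 5 members (Il10, Il24 and Mapkapk2), all lower in Ikzf4-/- cells, against 23.1% of all tested genes in either direction and 12.2% in that direction. The members were chosen with this comparison known, so nothing follows from these counts. Leaving out any 1 library (6 fits) kept the call of Il24. Il10 was called in 4 of these fits, and not without Ikzf4-/- replicate 1 or without Ikzf4-/- replicate 3. Mapkapk2 was called without WT replicate 1 and without WT replicate 3, and with the replicate number as a block. These calls reuse the values that led to the choice of Il10 and Il24, and are a description only.

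Levels of different genes were compared as normalized reads per kb of merged exons. In WT cells Mapkapk2 stood at 5533 ± 1266 (SD, n = 3). Il10 at 399 ± 151, Il24 at 392 ± 45.1 and Eif2d at 374 ± 41.0 (SD, n = 3 each) did not differ beyond their spread, and Dyrk3 was lowest at 51.9 ± 6.71 (SD, n = 3). In Ikzf4-/- cells Mapkapk2 was at 4132 ± 141 and Eif2d at 419 ± 29.0 (SD, n = 3 each). Il10 at 137 ± 9.86 and Il24 at 134 ± 49.4 (SD, n = 3 each) lay below Eif2d in each library and did not differ from each other beyond their spread. Dyrk3 was again lowest, at 58.7 ± 1.77 (SD, n = 3). Among all genes with a row, Il10 moved from percentile 68.4 of these per-kb means in WT to 46.7 in Ikzf4-/- cells, and Il24 from 68.1 to 46.4. Merging the exons of all annotated transcripts lengthens genes with many isoforms, which can understate their level per kb. The merged exons measured 7.37 kb for Eif2d, 1.31 kb for Il10 and 1.39 kb for Il24. The Eif2d transcript model with the longest coding sequence holds 1710 coding bases and 107 bases of 3′ UTR. The place of Eif2d beside Il10 and Il24 therefore depends on the length used.

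**Figure D2:**
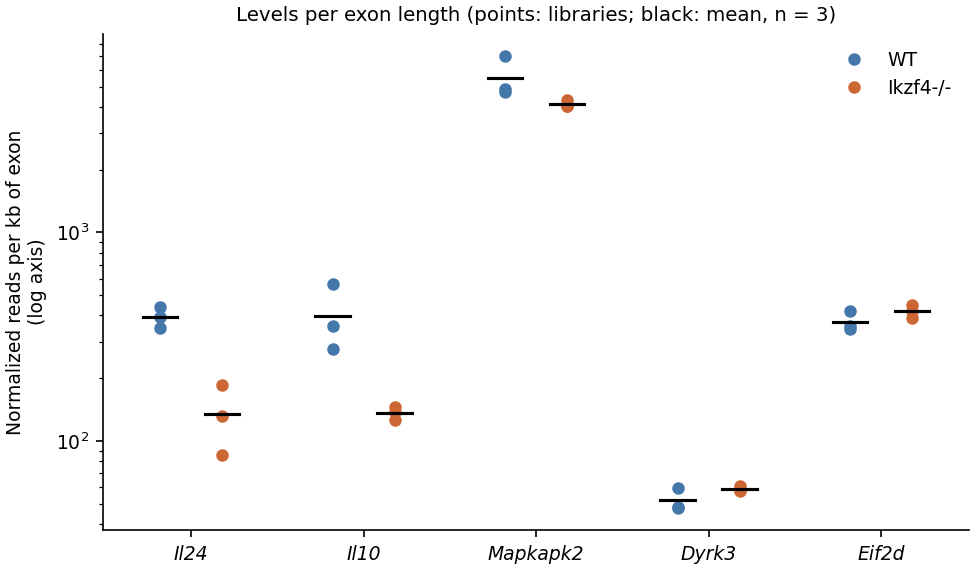
Normalized reads per kb of merged exon (log axis) of the 5 measured members in each WT (blue) and Ikzf4-/- (orange) library, with the mean of 3 in black. In WT cells Il24, Il10 and Eif2d lie near 400 on this scale (means 392, 399 and 374). In Ikzf4-/- cells Il24 and Il10 lie near 135 (means 134 and 137) and Eif2d at 419. The place of Eif2d depends on its merged exon length of 7.37 kb.

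The surroundings of the cluster were described from all genes that start within 500 kb of its ends. Of 47 annotated genes there, 24 of them protein-coding, 12 besides the members had a row. In the limma fit 0 of these 12 were called, where 1.77% of all genes tested were called. Their median log2 fold change was 0.09 against 0.00 over all genes tested, and 3 of the 12 had a fitted change below 0. At an unadjusted p under 0.05 there were 4 (Cd55, Fcmr, Ikbke and Gm28913), where 18.1% of all genes tested fell under that value. In the authors' deposited table Ikbke alone had an adjusted p under 0.05 (1 of the 12), as did 6.34% of 12849 genes. Fcmr, which encodes the receptor for the Fc part of IgM, is the next measured gene beside Il24. It stood at 128, 35.9 and 43.7 (WT) and at 39.3, 28.3 and 20.1 (Ikzf4-/-), with overlap (log2 fold change -1.03, SE 0.44, limma adjusted p = 0.253). Ikbke, which encodes an IκB kinase of innate signalling, stood at 2704, 3080 and 3392 (WT) and at 3964, 3612 and 3871 (Ikzf4-/-), without overlap (log2 fold change 0.32, SE 0.08, limma adjusted p = 0.0615). Gm28913 and Gm28914 are antisense to Ikbke, so their reads cannot be told apart from those of Ikbke if strand was not used. Pfkfb2, Ikbke, Gm28913 and Gm28914, all higher in Ikzf4-/- cells, were the 4 of the 12 without overlap. Of all genes tested, 23.1% were without overlap in either direction and 11% were so and higher. Rassf5, beside Eif2d, had a log2 fold change of 0.05 with a 95% confidence interval from -0.05 to 0.14. Yod1, Pigr, Srgap2, Fam72a and Ctse overlapped between genotypes, with log2 fold changes between -0.18 (Ctse) and 0.24 (Pigr).

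**Figure D3:**
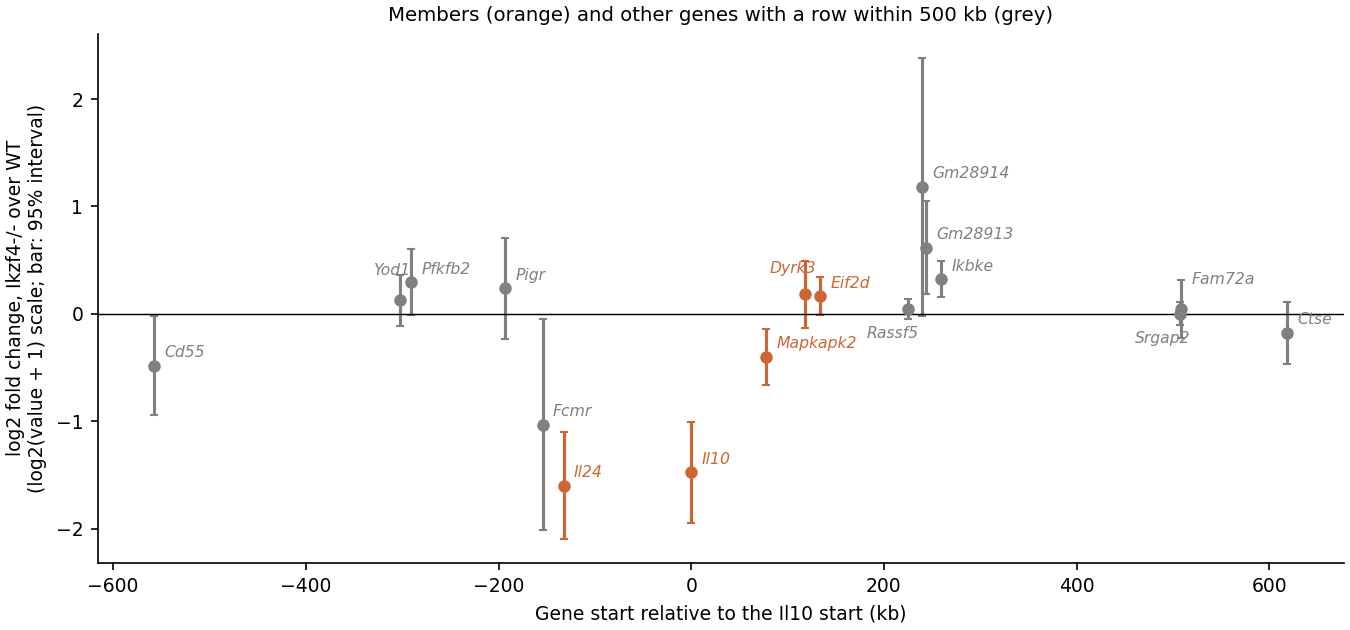
log2 fold change of Ikzf4-/- over WT with its 95% interval (y axis) against the distance of each gene's start from that of Il10 in kb (x axis), for the 5 measured members (orange) and 12 other genes (grey). Il24 (-1.60) and Il10 (-1.48) lie lowest, Mapkapk2 at -0.40, and Dyrk3 and Eif2d slightly above 0.

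The transcripts themselves were compared for a feature that the choice of members did not use, although it was examined after their values were known. The pentamer ATTTA, the core of AU-rich elements, was counted in the annotated 3′ UTR of each gene's transcript model with the longest coding sequence. Il10 held 6 in 706 bases (8.50 per kb) and Il24 4 in 381 bases (10.5 per kb), at percentiles 98.3 and 99.1 of this density among 12331 tested genes, whose median was 1.19 per kb. Il20 held 5 in 430 bases and Il19 1 in 492. The neighbours held few: Mapkapk2 1 in 1392 bases, Dyrk3 1 in 1219 and Eif2d 0 in 107. Among 82 other tested genes with at least 3 pentamers and a density at or above that of Il10, 1 was called (Mgarp, lower), or 1.22%. Their median log2 fold change was 0.03. The 82 are part of the 12331 genes above, whereas the share of 1.77% called covers all 14864 genes tested. Whether AU-rich elements bear on the changes of Il10 and Il24 was not tested.

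Of the receptor genes of the IL-10 family, 3 of 7 had a row, and Il10ra fell. Over all genes tested, 1.2% were called lower. Il10ra encodes the ligand-binding chain of the IL-10 receptor. It stood at 1655, 1131 and 873 normalized reads (WT) and at 626, 576 and 488 (Ikzf4-/-), without overlap. Il10ra fell by limma (log2 fold change -1.07, SE 0.19, adjusted p = 0.0258), with means of 1220.0 ± 398 in WT and 563.5 ± 69.9 in Ikzf4-/- cells (SD, n = 3). Il10rb, the chain shared with other family receptors, was at 646, 725 and 668 (WT) and at 847, 798 and 702 (Ikzf4-/-), with overlap (log2 fold change 0.20, limma adjusted p = 0.270). Il20rb, the chain shared by the receptors of IL-19, IL-20 and IL-24, had a log2 fold change of 0.09 with a 95% confidence interval from -0.32 to 0.49. The ratio of Il10ra to Il10rb was 1.81 ± 0.663 in WT and 0.719 ± 0.0222 in Ikzf4-/- libraries (SD, n = 3 each). A two-sided exact permutation test gave p = 0.1, the smallest that 3 against 3 libraries allow. The ratio reuses the Il10ra values given above, and this test cannot go under 0.1, so nothing follows from its p. Il20ra, Il22ra1, Il22ra2 and Ifnlr1 were without a row and not analysed. Il10ra was highest in WT replicate 1, as was Il10, and it was called in the fit without that library. It was called in 2 of the 6 fits that left out 1 library, with an adjusted p of up to 0.108, and not without WT replicate 2 or without any 1 of the Ikzf4-/- replicates.

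Of the 9 genes of the JAK-STAT3 chain and its targets, 4 fell, 0 rose and 5 were not called. Over all genes tested, 1.2% were called lower and 0.572% higher. The median log2 fold change of the list was -0.31. Values did not overlap between genotypes for 5 genes that were lower and 0 that were higher, against 12.2% and 11% of all genes tested. Socs3, the feedback inhibitor induced by STAT3, stood at 1001, 546 and 477 (WT) and at 273, 222 and 277 (Ikzf4-/-) (log2 fold change -1.32, SE 0.23, limma adjusted p = 0.0258). Bcl3, a nuclear IκB protein, stood at 1110, 621 and 550.3 (WT) and at 386, 333 and 358 (Ikzf4-/-) (-1.01, SE 0.21, limma adjusted p = 0.0436). Both genes were without overlap and highest in WT replicate 1. Nfil3, a basic leucine zipper factor known to act on Il10 in Th2 cells, fell by limma (log2 fold change -0.68, adjusted p = 0.0292), with means of 4298 ± 959 in WT and 2643 ± 196 in Ikzf4-/- cells (SD, n = 3). Stat3 fell by limma (log2 fold change -0.31, adjusted p = 0.0436), with means of 10353 ± 906 in WT and 8333 ± 451 in Ikzf4-/- cells (SD, n = 3). The kinase genes Jak1 (0.03) and Tyk2 (-0.04) had log2 fold changes near 0, with 95% confidence intervals from -0.08 to 0.15 and from -0.15 to 0.06. Without WT replicate 1, 4 of the 9 were called. Without WT replicate 2, or without any 1 of the Ikzf4-/- replicates, the count was 0.

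Of 16 transcription factor genes known to act on Il10 in T cells, 3 fell, 0 rose and 13 were not called, with a median log2 fold change of -0.22. The 3 were Nfil3 and Stat3, which this list shares with the one above, and Junb. Over all genes tested, 1.2% were called lower. Junb, an AP-1 subunit, stood at 30663, 26307 and 24526 (WT) and at 19553, 22000 and 19476 (Ikzf4-/-) (log2 fold change -0.41, SE 0.08, limma adjusted p = 0.0319). Prdm1, the gene of Blimp-1, which promotes Il10, stood at 108, 84.5 and 77.6 (WT) and at 30.3, 54.4 and 40.2 (Ikzf4-/-), without overlap (log2 fold change -1.12, SE 0.26, limma adjusted p = 0.0588, not called). Maf, which encodes another activator of Il10, had values of 198, 184 and 168 (WT) and 203, 283 and 213 (Ikzf4-/-), also without overlap but higher in Ikzf4-/- cells (log2 fold change 0.33, limma adjusted p = 0.290, not called). The list's values did not overlap between genotypes for 7 genes that were lower and 2 that were higher, against 12.2% and 11% of all genes tested. WT replicate 1 held the highest value for 9 of the 16 genes, and for 5 of the 9 JAK-STAT3 genes, against 25.6% of all genes tested. Most of these genes were fitted lower (12 of the 16 and 7 of the 9), which favours a WT library as the highest. The same library was highest for 7 of 13 p38-MK2 genes and 5 of 10 EIF2D-related genes, lists described below with 0 genes called. Without that library 4 of the 16 were called. Without WT replicate 2, Ikzf4-/- replicate 1 or Ikzf4-/- replicate 3 the count was 0, Ikzf4-/- replicate 2 when left out gave 1, and leaving out WT replicate 3 gave 6.

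**Figure D4:**
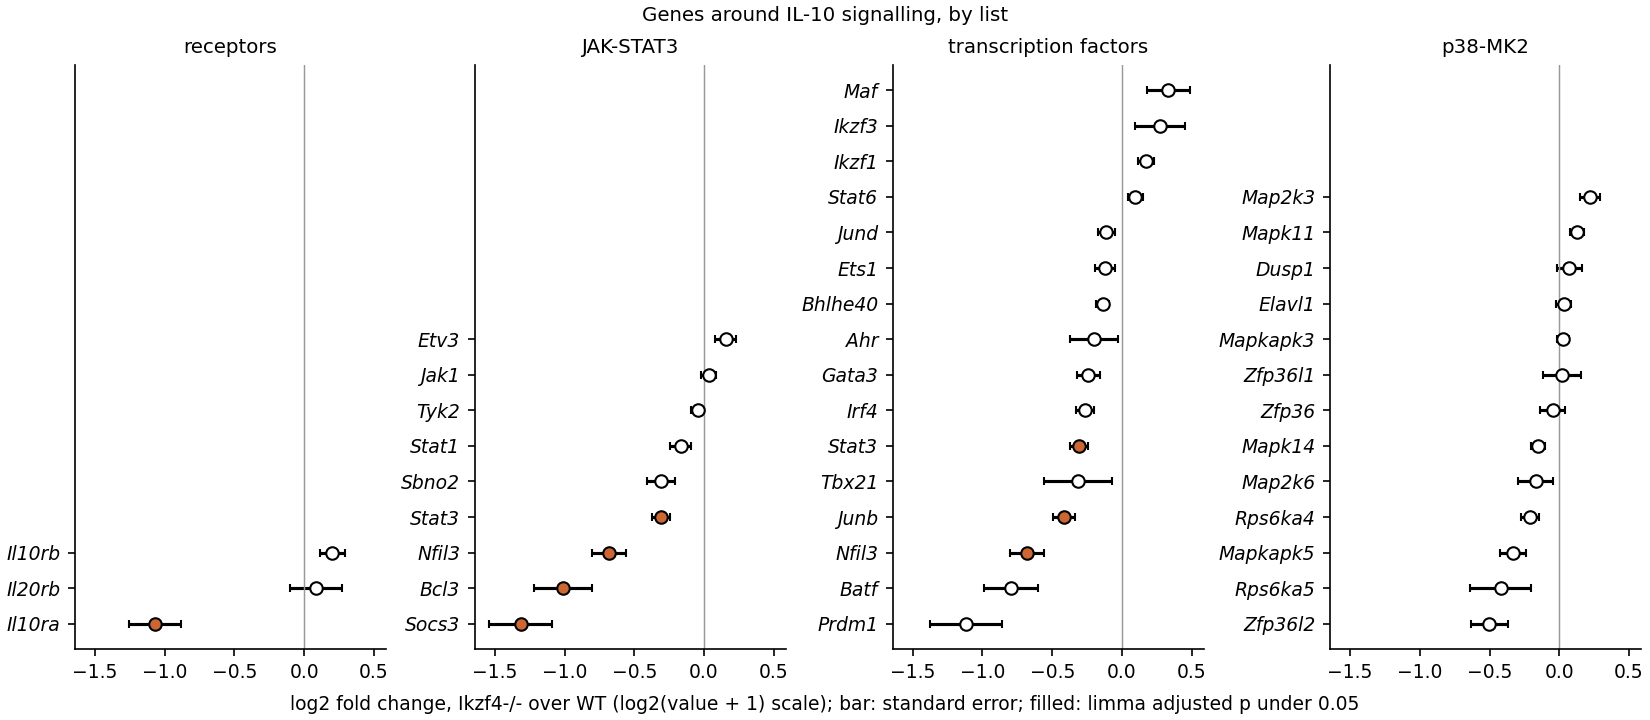
log2 fold change of Ikzf4-/- over WT with its SE (x axis) for the measured genes of 4 lists (one panel each), filled where the limma adjusted p was under 0.05. Il10ra (-1.07), Socs3 (-1.32), Bcl3 (-1.01), Nfil3 (-0.68), Junb (-0.41) and Stat3 (-0.31) are filled, and 0 genes of the p38-MK2 panel are.

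Around Mapkapk2, 13 of 14 genes of the p38-MK2 chain had a row. In the limma fit 0 were called, where 1.77% of all genes tested were called. The median log2 fold change was -0.05. Without overlap, 4 of the 13 were lower and 2 higher, against 12.2% and 11% of all genes tested. The count of called genes was 1 in the authors' deposited table, without WT replicate 1, without WT replicate 3, with array weights and with the replicate block. Zfp36l2, which encodes an RNA-binding protein of AU-rich elements, had the largest change (log2 fold change -0.50, SE 0.13, limma adjusted p = 0.0801). Rps6ka5 (-0.42, limma adjusted p = 0.347), Mapkapk5 (-0.33, 0.0981) and Map2k3 (0.22, 0.139) followed. Zfp36, the gene of tristetraprolin, a target of MK2 that destabilizes cytokine mRNAs, had a log2 fold change of -0.05 with a 95% confidence interval from -0.25 to 0.15. Of the other DYRK kinase genes 3 of 4 had a row and 0 were called, beside the same 1.77% of all genes tested. Dyrk1a, Dyrk1b and Dyrk2 had log2 fold changes of 0.04, -0.15 and 0.00. The 10 initiation and recycling factors related to EIF2D include its functional relatives Denr (-0.03) and Mcts1 (0.04). Of the 10, 0 were called, beside the same 1.77%, and the median was 0.01. Mcts2 had the largest change of these (0.67, limma adjusted p = 0.121), followed by Eif1 (0.13), Abce1 (0.05) and Eif2s3x (-0.05).

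Among 22 measured genes of other helper T cell cytokines, 4 fell (Il4, Il13, Lif and Osm), 0 rose and 18 were not called. Their median log2 fold change was 0.00. Over all genes tested, 1.2% were called lower. Il4, the defining Th2 cytokine, fell by limma (log2 fold change -0.87, adjusted p = 0.0144), with means of 449 ± 36.1 in WT and 247 ± 30.9 in Ikzf4-/- cells (SD, n = 3). Il13, another effector cytokine of Th2 cells, changed by -0.82 on the log2 scale (limma adjusted p = 0.0450) and kept its call only without WT replicate 1 among the 6 fits with 1 library left out. Lif and Osm, cytokines of the IL-6 family, changed by -1.05 and -0.69 (limma adjusted p = 0.00737 and 0.0131). Without Ikzf4-/- replicate 3, 1 of the 22 was called, and without WT replicate 1 it was 8. Il22, the remaining family member with a row, was at 86.2, 3.59 and 14.6 (WT) and at 5.04, 11.5 and 22.1 (Ikzf4-/-), with overlap. Its log2 fold change was -0.61, and 0.51 without WT replicate 1. Ifnl2 and Ifnl3 had no row. Of 11 measured genes that mark IL-10-producing regulatory T cells, 1 fell, 0 rose and 10 were not called, with a median of -0.21. The same 1.2% of all genes tested stands beside this count. Lag3, an inhibitory receptor of such cells, fell by limma (log2 fold change -0.60, adjusted p = 0.0355), with means of 10972 ± 2307 in WT and 7143 ± 366 in Ikzf4-/- cells (SD, n = 3) and was called in 2 of the 6 fits that left out 1 library. Gzmb, Nt5e and Ctla4, which were not called, had log2 fold changes of -0.75, 0.70 and -0.53, with limma adjusted p of 0.200, 0.135 and 0.197. Foxp3, the factor that defines regulatory T cells, was low, at 36.2, 97.0 and 42.7 (WT) and 43.4, 31.4 and 48.2 (Ikzf4-/-), with overlap.

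The genes with the most similar pattern over the 6 libraries were sought by the Pearson correlation of log2(value + 1) among 11585 other genes with a mean of at least 50. For Il10 they were Anxa6 (r = 0.998), Atp6ap1 (0.998), Hpse (0.996), 5830432E09Rik (0.995) and Smim3 (0.994). Of these, Anxa6, Hpse and Smim3 were called lower. For Il24 they were Pdcd2l (r = 0.993), Dmwd (0.993), Minpp1 (0.991), Slc25a10 (0.990) and Mbtps1 (0.986), and none of the 5 was called in the limma fit. The correlations describe 6 points that share the split by genotype, the library scaling and, for Il10, the high WT replicate 1. With Il10, 280 genes reached r above 0.95, and with Il24 42 did. Il10 and Il24 had r = 0.811 with each other, and Il10 ranked 608 among the 11585 by likeness to Il24.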

How the data were processed

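Samples were grouped and numbered from their titles. The submitters' processing notes name Trimmomatic 0.36, STAR 2.5.2b and DESeq2, with no role or order, and GRCm38 (mm10). The counting tool, its use of strand and the annotation are not given in the sources used here. The sample columns deposited by the authors hold a never-negative signal, read as normalized read counts, because 100% of values up to 1000 steps lay within 0.1 of a whole multiple of 1 step per library (0.899 to 1.06). The authors' deposited log2 fold changes and p-values (raw and adjusted) entered only as an alternative. The steps of 2 libraries lay too near 1 for reads to be accepted as recovered, so no count test was run. The implied reads of replicate pairs differed by more than sampling noise, with chi-square per degree of freedom of 7.38 to 18.5.

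The signal was taken to log2(value + 1) for the 14864 genes whose mean reached 10, and the genotype effect came from limma (3.58.1, R 4.3.3) with its trend option. Two-sided p-values were adjusted across all genes (Benjamini-Hochberg), with calls at 0.05. The procedure was also run on simulated counts. These had the same spread setting for all genes and no library that stood apart, so they do not cover the spread seen here. Fold changes on this scale understate those of low genes. Fitted intervals are 95%. Intervals cover the spread between libraries. Positions and exon lengths came from GENCODE M21 (GRCm38) by Ensembl identifier (14831 of 14868 matched), and promoters from RefSeq (GRCm38.p6). Named genes were Ikzf4, the members, list genes that were called (then the largest changes, up to 4 a list), receptors, genes within 500 kb, and the 5 genes most like Il10 and Il24. Other genes named were chosen after their values were seen. The members and lists were chosen with earlier results of these data known. Alternatives were other scalings, filters and pseudocounts, the replicate number as a block, array weights, leaving out each library, and the authors' deposited calls.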

Additional observations from a re-analysis of the deposited data

How the results depend on the processing

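Ikzf4 kept its direction and call under the 16 alternatives run. Against 263 called genes, the replicate block gave 754, array weights 482 and the authors' deposited calls 815, and leaving out 1 library gave 20 (without Ikzf4-/- replicate 3) to 523 (without WT replicate 3); the other settings gave 256 to 283. Higher genes made up 32.3% of the calls, 42.8% with equal library totals and 18.8% without Ikzf4-/- replicate 1. Same-numbered libraries had deviations that correlated at 0.145, 0.0122 and 0.142, so the numbers were not taken as a pairing. With the replicate block, 7 transcription factor genes and 7 cytokine genes were called in place of 3 and 4. Over all alternatives the log2 fold change ran from -1.71 to -1.19 for Il10, from -1.86 to -1.31 for Il24, from -0.50 to -0.22 for Mapkapk2, from 0.13 to 0.29 for Dyrk3 and from 0.11 to 0.26 for Eif2d. For the single genes described or on the lists, direction and call held for 1600 values, the call was lost for 40 and gained for 50, and 63 values of 30 genes changed sign. Of these 63, 1 was called in either fit, Csf2, at 0.14 with all libraries, -0.36 (called) without WT replicate 1, up to 0.44 without WT replicate 3, -0.10 with array weights and -0.0069 in the authors' deposited table. With 1 library left out, other named genes also changed sign, such as Il22 (-1.61 to 0.51) and Foxp3 (-0.66 to 0.037). Further ranges were -0.14 to 0.24 (Il20rb), -0.0084 to 0.081 (Jak1), -0.12 to 0.016 (Zfp36) and -0.061 to 0.0012 (Denr). Dyrk1a ran from -0.013 to 0.076 and Dyrk2 from -0.052 to 0.048. The same held for the cytokine genes Tnf (-0.24 to 0.48), Ifng (-0.51 to 0.23), Ccl3 (-0.17 to 0.70) and Il3 (-0.20 to 0.11). Array weights gave 0.24 for Il22 and -0.0086 for Dyrk2. Fits that leave out 1 library also rest on fewer libraries. The cause of these differences was not tested.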

Other observations

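Of the 22 other cytokine genes, 6 lay lower and 5 higher in each Ikzf4-/- library than in each WT library, against 12.2% and 11% of all genes tested. The 6 lower were the called Il4, Il13, Lif and Osm together with Il5 and Ltb. Il5, a Th2 cytokine that acts on eosinophils, stood at 126, 88.1 and 136 (WT) and at 65.6, 32.5 and 51.2 (Ikzf4-/-) (log2 fold change -1.24, SE 0.28, limma adjusted p = 0.0529). It was called in 5 of the 16 alternatives. Ltb, the gene of lymphotoxin beta, had a difference of -0.28 on the log2 scale (limma adjusted p = 0.0862, not called). The limma fit called none of the 5 higher genes. Il2, the T cell growth factor, stood at 1189, 2040 and 2798 normalized reads (WT) and at 3418, 3818 and 3706 (Ikzf4-/-) (log2 fold change 0.94, limma adjusted p = 0.0621). Tnfsf11, the gene of RANKL, stood at 8274, 10880 and 11798 (WT) and at 14462, 13865 and 13429 (Ikzf4-/-) (log2 fold change 0.45, limma adjusted p = 0.0587). Ccl1, Il17f and Csf1 were the other cytokine genes of this kind, with log2 fold changes of 1.19, 1.89 and 0.20 and limma adjusted p of 0.142, 0.121 and 0.1004. For Il2, Tnfsf11, Ccl1, Il17f and Csf1 alike, WT replicate 1, the library with the highest Il10, held the lowest value of the 6 libraries. Genes picked as higher in each Ikzf4-/- library must have their lowest value in a WT library. WT replicate 1 was also lowest for Il3, Ccl3, Ccl4, Csf2, Tnf, Ifng and Xcl1, whose values overlapped between genotypes. This place of WT replicate 1 is thus not particular to the genes that were higher. Without that library the log2 fold changes were 0.55 for Ccl1, 1.10 for Il17f, 0.15 for Csf1, 0.61 for Il2 and 0.30 for Tnfsf11. Ccl1, Il2 and Tnfsf11 were then called by limma. Over all alternatives Tnfsf11 was called in 5, Il2 in 4 and Ccl1 in 1. Il17f and Csf1 were called in 1 each, the authors' deposited table.

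Within the Ikzf4-/- libraries, Il24 (184, 119 and 256 in replicates 1 to 3) had the same order as the few remaining Ikzf4 reads (25.2, 10.5 and 38.2), while Il10 (179.6, 192 and 166) had the opposite order. In the WT libraries it was Il10 (743, 465 and 360.1) that had the order of Ikzf4 (756, 499.6 and 483), and Il24 (543, 481 and 606) did not. With 3 libraries a genotype this is a description only.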
